A study of Mus musculus with 2 samples.

Results

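Chemokine receptors are the surface receptors by which lymphoid cells read chemokine gradients, and 9 of them were followed here through the lymphoid cells of mouse bone marrow: Ccr2, Ccr6, Ccr7, Ccr8, Ccr9, Cxcr3, Cxcr4, Cxcr5 and Cxcr6. They are 9 of the 31053 genes listed in both libraries, chosen by symbol, and each symbol stood on a single row. The data are single-cell RNA counts of bone marrow cells of C57BL/6 mice aged 8 to 12 weeks, which had been sorted for CD45 and for CD127, the interleukin-7 receptor alpha chain, after dead and lineage-positive cells were left out. The knock-out library (KO) came from animals with LCR1 knocked out on both alleles, and the wild-type library (WT) from animals with both copies, each pooled from males and females in the same number. The purpose given for the comparison is the consequence of LCR1 deletion for group 2 innate lymphoid cells (ILC2), and the labels used here tie LCR1 to no gene, so the genotype could not be checked against a transcript. Each genotype had 1 library of pooled animals, so no difference between KO and WT has a replicate check, no p-value is given, and every interval covers counting error only.

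Chemokine receptors are G protein-coupled receptors that signal through inhibitory G proteins and steer migration, retention and tissue entry. In the marrow, Cxcr4 holds progenitors near stromal cells that make Cxcl12, and Ccr2 is known for letting cells leave the marrow towards Ccl2 and Ccl7. Ccr9 binds Ccl25 of the thymus and small intestine, Ccr7 binds Ccl19 and Ccl21 of lymph nodes and thymus, and Cxcr5 binds Cxcl13 of B cell follicles. Ccr6 binds Ccl20 of mucosal surfaces, Cxcr3 binds the interferon-induced Cxcl9 and Cxcl10, Cxcr6 binds membrane-bound Cxcl16, and Ccr8 binds Ccl1 and Ccl8. ILC2 produce type 2 cytokines in barrier tissues, and their marrow ancestry runs over common lymphoid progenitors and precursors committed to innate lymphoid cells (ILC).

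Several of the receptor genes, Ccr8, Ccr9, Cxcr6, Ccr2 and Cxcr5, lie on chromosome 9 of the mm10 (GRCm38) build, and all but Cxcr5 fall on its distal part. By RefSeq's annotation, Ccr8 spans chr9:120092133-120094906, Ccr9 chr9:123767211-123783457, Cxcr6 chr9:123806477-123811754 and Ccr2 chr9:124101918-124109140, all on the plus strand and all protein-coding. The gap was 23.0 kb between Ccr9 and Cxcr6, 290 kb between Cxcr6 and Ccr2, and 3672 kb between Ccr8 and Ccr9. The sequences upstream of Ccr9, Cxcr6 and Ccr8 are shown because these genes share a chromosome and are all read in ILC2, yet differ in which other classes carry them. RefSeq's promoter table held 7 of the 9 receptors. Each stretch below covers 208 bases, from 250 to 43 bases before RefSeq's start of the gene, a window that holds no exon annotated by GENCODE. GENCODE's span of Ccr9 starts upstream of this window, at chr9:123678439, so the Ccr9 stretch lies inside that span. Capitals mark the E-box letters CANNTG, searched on both strands, the recognition sequence of basic helix-loop-helix E proteins.
Ccr9, chr9:123766961-123767168, plus strand: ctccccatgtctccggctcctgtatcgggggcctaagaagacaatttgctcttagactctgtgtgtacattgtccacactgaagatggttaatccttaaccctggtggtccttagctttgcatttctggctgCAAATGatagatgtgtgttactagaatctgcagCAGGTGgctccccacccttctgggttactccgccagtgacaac
Cxcr6, chr9:123806227-123806434, plus strand: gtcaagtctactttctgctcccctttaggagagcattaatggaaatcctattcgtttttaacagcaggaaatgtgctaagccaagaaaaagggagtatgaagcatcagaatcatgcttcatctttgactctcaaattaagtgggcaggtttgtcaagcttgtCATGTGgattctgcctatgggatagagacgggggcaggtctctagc
Ccr8, chr9:120091883-120092090, plus strand: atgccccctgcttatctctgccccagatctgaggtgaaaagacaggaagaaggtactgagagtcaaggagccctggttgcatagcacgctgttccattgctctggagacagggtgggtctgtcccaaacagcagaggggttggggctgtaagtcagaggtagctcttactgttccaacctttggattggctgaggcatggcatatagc
The Ccr9 stretch held 2 such E-boxes, the Cxcr6 stretch 1 and the Ccr8 stretch 0, and 60.3% of the 32851 promoters in the table held at least 1 in the same window. The letters CACCTG, a form of the same motif counted on both strands, occurred 1 time upstream of Ccr9 and 0 times upstream of Cxcr6 and Ccr8, against 14.9% of all promoters with a match. The GATA letters AGATAA occurred 1 time upstream of Ccr8, 0 times upstream of Ccr9 and Cxcr6, and in 8.7% of all promoters. These matches describe letters in these windows and are not evidence of binding.

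RNA molecules are counted by their unique molecular identifier (UMI). Cells with at least 1000 genes and at most 10% mitochondrial UMIs were kept. These were 4343 of 8476 barcodes in the KO library, which held 52137780 UMIs, and 3290 of 20293 barcodes in the WT library, which held 47883132 UMIs. The kept cells had a median of 7261 UMIs in KO and 5371.5 UMIs in WT, and 5.25% of KO cells against 28.5% of WT cells had under 3000 UMIs. The kept cells of the libraries shared 0 cell barcodes. Cells were placed in classes by marker genes, among which no chemokine receptor was used. A cell took the class of its highest marker score where that score stood 1 standard deviation above the mean, led the second score by 0.5 and rested on at least 3 detected markers. The limits were set after seeing the data, and between 4 and 139 cells of each class described and library lay within 0.25 of one of them. Of the kept cells, 34.2% in KO and 42.2% in WT took no class.

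The classes are called by the cell type whose markers chose them, and all names mean "like". They held 436 KO and 491 WT cells for ILC2, 376 and 113 for ILC precursors, 389 and 115 for NK cells or ILC1, 275 and 86 for CD3-expressing lymphocytes, 491 and 287 for common lymphoid progenitors, 94 and 102 for early B cells, 194 and 281 for plasmacytoid dendritic cells and 173 and 233 for basophils, mast cells or eosinophils. Gata3 was detected in 99.1% of KO and 98.4% of WT ILC2, and Mcpt8, Prss34 and Cpa3 in over 90% of the basophil class of each library, whereas the eosinophil gene Prg2 was read in 0.578% of KO and 0.858% of WT cells there, so this class is called the basophil class below. Lymphoid tissue inducer cells or ILC3 (LTi) counted 320 in KO and 26 in WT, too few in WT to count among the classes compared, and their receptors are described apart. A class gated on monocyte or dendritic cell markers carried a median of 8 of 12 progenitor markers per KO cell and 7 per WT cell and was left unnamed. Plasmacytoid dendritic cells also carried a median of 7 of 12 progenitor markers per KO cell and 6 per WT cell, and CD3-expressing lymphocytes a median of 4 of 12 NK markers per KO cell and 5 per WT cell. Early B cells carried a median of 7.5 of 12 progenitor markers per KO cell and 4 per WT cell, beside 6 and 5 of 10 of their own. ILC3 or LTi cells carried 4 of 8 ILC precursor markers in each library, beside 4 of 10 of their own. The part of these mixed markers in the receptor levels was not tested.

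In ILC2 the receptors with the highest levels were Ccr9, Ccr2 and Cxcr6, of which Ccr2 and Cxcr6 were shared with other classes. Levels are given as CPM, a receptor's UMIs in the class scaled to all UMIs of the class, a scale on which transcript length does not enter because each transcript is tagged at its 3' end. Ccr9 stood at 337 CPM (313 to 363) in KO ILC2 and 385 CPM (363 to 408) in WT ILC2, the highest Ccr9 of the classes described in each library. Ccr2 stood at 229.8 CPM in KO and 159 CPM in WT, and Cxcr6 at 98.5 and 130.0 CPM. Ccr2 was higher in ILC precursors and in NK cells or ILC1 in both libraries (262 and 257 CPM in WT). Cxcr6 was higher in WT CD3-expressing lymphocytes (152 CPM), and KO ILC3 or LTi cells (97.2 CPM) stood close to KO ILC2. Cxcr4 was low in ILC2, with 22.7 CPM in KO and 21.7 CPM in WT. Ccr8 had 31 UMIs in KO and 17 in WT, or 15 CPM (10.2 to 21.2) and 5.85 CPM (3.41 to 9.36), under the 50 UMIs asked for a comparison. Cxcr3, the receptor of type 1 lymphocytes, had 0 UMIs in KO ILC2, which allows up to 1.78 CPM, and 1 UMI in WT ILC2. Ccr6, Ccr7 and Cxcr5 had 1, 9 and 0 UMIs in KO and 0, 1 and 1 in WT.

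**Figure D1:**
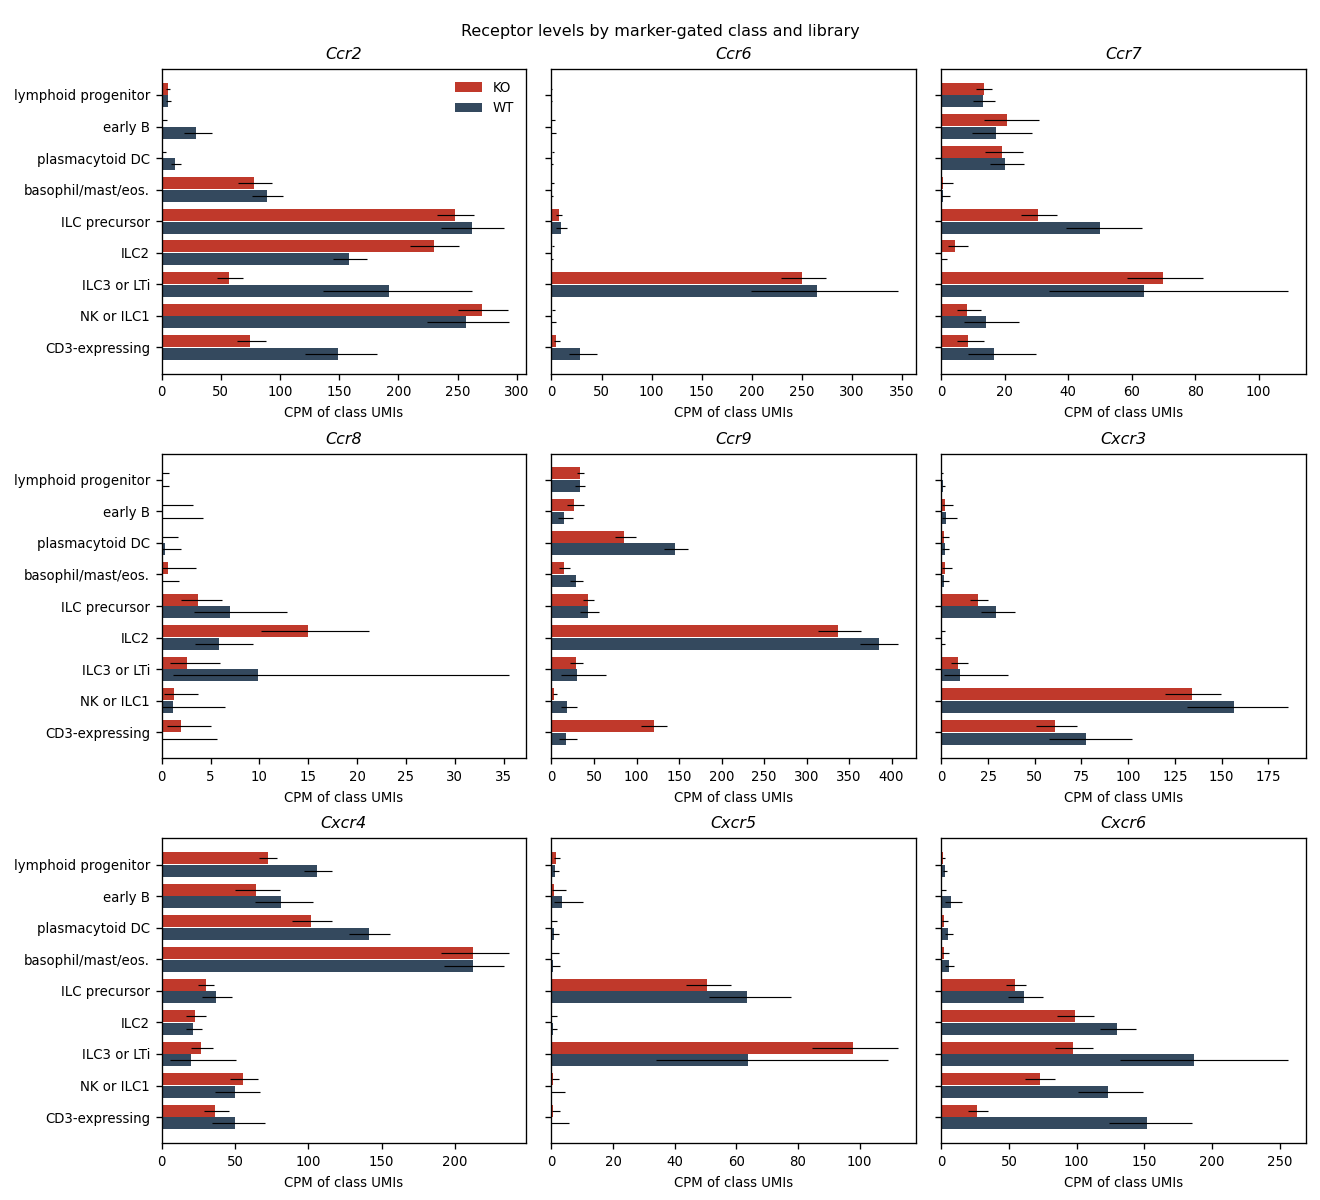
Level of each receptor (CPM of class UMIs, horizontal axis, starting at 0) in each marker-gated class, with the KO bar above the WT bar and lines for the 95% Poisson interval of the UMI count. The longest Ccr9 bars are those of ILC2 (337 CPM in KO, 385 CPM in WT), the longest Ccr6 bars those of ILC3 or LTi cells (250.5 and 265 CPM), and the longest Cxcr4 bars those of the basophil class.

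ILC precursors carry Zbtb16 and Tcf7. Of the classes compared they had the most receptors at 50 UMIs or more over both libraries, 7 of the 9. That count grows with the UMIs of a class, and ILC3 or LTi cells, described apart, also had 7. In the precursors Ccr2 led, at 248 CPM (232 to 264) in KO and 262 CPM (236 to 289.6) in WT, with overlapping intervals. Cxcr6 stood at 54.8 CPM in KO and 61.3 CPM in WT, and Ccr9 at 42.9 and 43.2 CPM, well under its level in ILC2. The follicle receptor Cxcr5, nearly absent from ILC2, stood at 50.6 CPM in KO and 63.3 CPM in WT precursors. The lymph node receptor Ccr7 stood at 30.4 CPM in KO and 50.1 CPM in WT. Cxcr3 and Cxcr4 stood at 19.9 and 29.9 CPM in KO and at 29.2 and 36.9 CPM in WT. Ccr6 and Ccr8 had 28 and 14 UMIs in KO and 13 and 10 in WT.

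NK cells or ILC1 combined Ccr2 with Cxcr3 and Cxcr6. Ccr2 stood at 271 CPM in KO and 257 CPM in WT, Cxcr3 at 134 and 157 CPM, and Cxcr6 at 72.6 and 123 CPM. Their Cxcr4 was 55.4 CPM in KO and 50 CPM in WT. Ccr9 was 3.36 CPM in KO and 18.6 CPM in WT, against 14.6 CPM in KO and 28.6 CPM in WT in the basophil class. The CD3-expressing lymphocytes also carried Cxcr3, at 61.1 CPM in KO and 77.7 CPM in WT, with Ccr2 at 74.9 and 149 CPM and Cxcr4 at 36.5 and 50.2 CPM. In this class Ccr9 and Cxcr6 stood in opposite order in the libraries, with Ccr9 above Cxcr6 in KO (120.2 and 26.6 CPM) and below it in WT (16.7 and 152 CPM). Ccr6 had 9 UMIs in KO and 19 in WT CD3-expressing lymphocytes.

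ILC3 or LTi cells were the class of Ccr6, the receptor known from intestinal LTi cells. Ccr6 stood at 250.5 CPM (229 to 274) in the 320 KO cells and 265 CPM (199 to 346) in the 26 WT cells. This class held 77.4% of all Ccr6 UMIs in kept KO cells and 50.9% of those in kept WT cells. Cxcr5 stood at 97.7 CPM in KO and 63.9 CPM in WT, and Ccr7 at 69.7 and 63.9 CPM. Both were shared with ILC precursors, which had Cxcr5 at 50.6 and 63.3 CPM and Ccr7 at 30.4 and 50.1 CPM. In ILC3 or LTi cells Cxcr6 stood at 97.2 CPM in KO and 187 CPM in WT, and Ccr2 at 57 and 192 CPM. In WT these 2 thus stood above Cxcr5 and Ccr7. With 26 WT cells, these WT levels rest on 54 UMIs for Ccr6, 39 for Ccr2 and 13 for Cxcr5, and nothing is read from KO over WT folds in this class. Over all kept cells, of which this class was a larger part in KO, Ccr6 stood at 14.9 CPM in KO and 3.63 CPM in WT.

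In progenitors, early B cells and the basophil class Cxcr4 was the highest of the 9 receptors, and in plasmacytoid dendritic cells Cxcr4 and Ccr9 stood close together. In common lymphoid progenitors it stood at 72.2 CPM (66.3 to 78.4) in KO and 106 CPM (97 to 116) in WT, with intervals that did not overlap. Ccr9 and Ccr7, which take progenitors to the thymus, stood at 33.4 and 13.3 CPM in KO progenitors and at 33.2 and 13 CPM in WT progenitors. Ccr2 was 5.25 CPM in KO and 5.43 CPM in WT progenitors, far under its level in ILC precursors. Early B cells had Cxcr4 at 64 CPM in KO and 81.6 CPM in WT and Ccr7 at 20.8 and 17.2 CPM. Plasmacytoid dendritic cells, which are known to carry Ccr9, had it at 85.8 CPM (74.1 to 98.8) in KO and 146 CPM (132 to 160.4) in WT, beside Cxcr4 at 102 and 141 CPM. The basophil class had the highest Cxcr4, 212 CPM in KO and 212 CPM in WT, and Ccr2 at 78 and 88.8 CPM.

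Since a share of cells with a UMI depends on depth, every cell was thinned to 1500 UMIs for it. At that depth Ccr9 was read in 30.7% (26.4 to 35.3, Clopper-Pearson) of KO ILC2 and 32% (27.9 to 36.3) of WT ILC2, and at full depth in 49.1% and 53.8%. In the basophil class, chosen to set the background of Ccr9, the thinned share was 1.16% in KO and 4.72% in WT, at median depths of 6905 and 4741 UMIs before thinning, against 4526 and 5363 for ILC2. That this class lacks Ccr9 was assumed and was not tested. Its Ccr9 UMIs sat in few cells, at 4.60 per positive cell in KO and 3.05 in WT, and its WT level of 28.6 CPM stood above the 18.6 CPM of WT NK cells or ILC1 and the 14.9 CPM of WT early B cells. Cxcr3 was read in 19.8% of KO and 17.4% of WT NK cells or ILC1 after thinning (48.6% and 53% at full depth), against 1.06% of KO and 1.96% of WT early B cells. Ccr2 was read in 28.8% of KO and 27% of WT NK cells or ILC1, in 21.3% and 16.7% of ILC2, and in 0% (0 to 3.85) and 1.96% (0.238 to 6.9) of early B cells, its background class. The 25 Ccr2 UMIs of WT early B cells came from 2.94% of those cells at full depth, and early B cells had a median of 11696 UMIs in KO and 2922 UMIs in WT. In ILC precursors the thinned share with Ccr2 was 26.1% in KO and 15.9% in WT, which runs against the CPM, so no order is read from it.

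**Figure D2:**
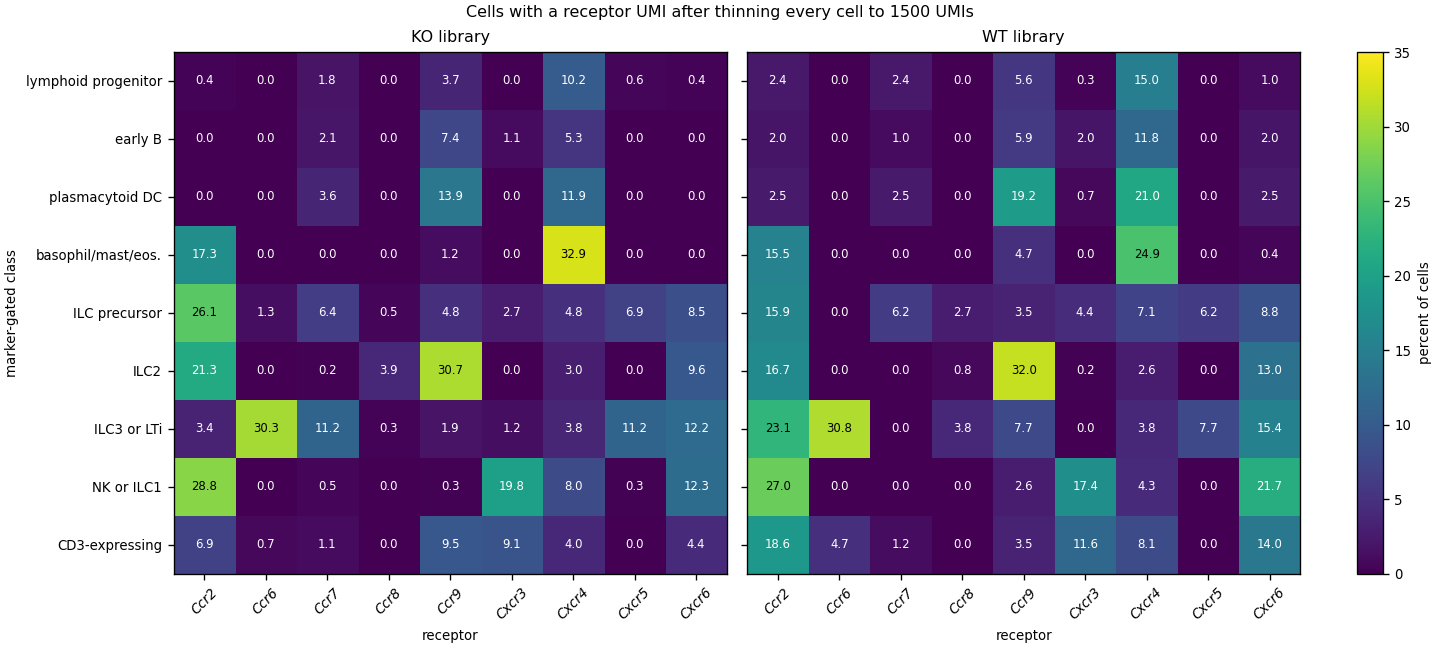
Percent of cells with at least 1 UMI of each receptor (columns) in each class (rows), after every cell was thinned to 1500 UMIs, with the KO library on the left and the WT library on the right. Ccr9 was read in 30.7% of KO and 32% of WT ILC2 and Cxcr4 in 32.9% of KO and 24.9% of WT cells of the basophil class.

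Ordered by receptor over the classes compared, Ccr9 in KO ran from ILC2 (337 CPM) over CD3-expressing lymphocytes (120.2) and plasmacytoid dendritic cells (85.8) to ILC precursors (42.9), with progenitors, early B cells, the basophil class and NK cells or ILC1 below, and the intervals of precursors and progenitors overlapped that of early B cells (18.2 to 38.1 CPM). In WT it ran from ILC2 over plasmacytoid dendritic cells to ILC precursors and progenitors, and the intervals of the lowest classes overlapped. Ccr2 was highest in NK cells or ILC1, ILC precursors and ILC2 in both libraries, and NK cells or ILC1 and ILC precursors had overlapping intervals (250.5 to 293 and 232 to 264 CPM in KO), as had ILC2 and CD3-expressing lymphocytes in WT. Cxcr4 ran from the basophil class over plasmacytoid dendritic cells and progenitors to ILC2 in both libraries. Cxcr3 ran from NK cells or ILC1 over CD3-expressing lymphocytes to ILC precursors in both libraries, and stood at no more than 2.3 CPM in the remaining classes compared. Ccr8 was the rarest of the 9, with 93 UMIs in all kept KO cells and 55 in all kept WT cells. Cells outside the 9 classes described held 46.6% of the Ccr9 UMIs in KO and 42.8% in WT.

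Against WT, most pairs of receptor and class with enough UMIs had a KO over WT fold within the 1.5-fold rule. Of the 72 pairs of receptor and class, 31 had at least 50 UMIs over both libraries. Of these, 1 was at least 1.5-fold higher in KO, 6 were at least 1.5-fold lower and 24 lay within 1.5-fold, while 41 pairs had too few UMIs. Some intervals among the 24 reach past 1.5-fold, such as 0.459 to 1.02 for Cxcr3 in ILC precursors. A fold inside the rule is therefore not read as no difference. In ILC2, 0 of 4 measured receptors were past the rule, where 2.7% of 7665 measured genes were higher and 6.88% lower in KO. In ILC precursors 1 of 7 was lower (4.4% of 8475 genes lower, 5.25% higher), and in NK cells or ILC1 1 of 4 was lower (5.23% of 6845 genes lower, 4.79% higher). In CD3-expressing lymphocytes 1 of 5 was higher and 2 lower, against 13.3% of 6235 genes higher and 6.61% lower. In plasmacytoid dendritic cells 1 of 3 was lower (4.62% of 8400 genes lower, 2.89% higher), and in the basophil class 1 of 3 was lower (5.85% of 7099 genes lower, 3.27% higher). In progenitors 0 of 4 were past the rule (2.69% of 10051 genes higher, 3.94% lower), and in early B cells 0 of 1 (6.25% of 5299 genes higher, 9.42% lower). In ILC3 or LTi cells, outside these pairs, 1 of 7 was past 1.5-fold higher and 2 lower, where 17.8% of 5869 genes were higher and 9.85% lower, so with 26 WT cells nothing is read from it. Fewer receptor-carrying cells within a class and less receptor RNA per cell are not separated by these sums.

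**Figure D3:**
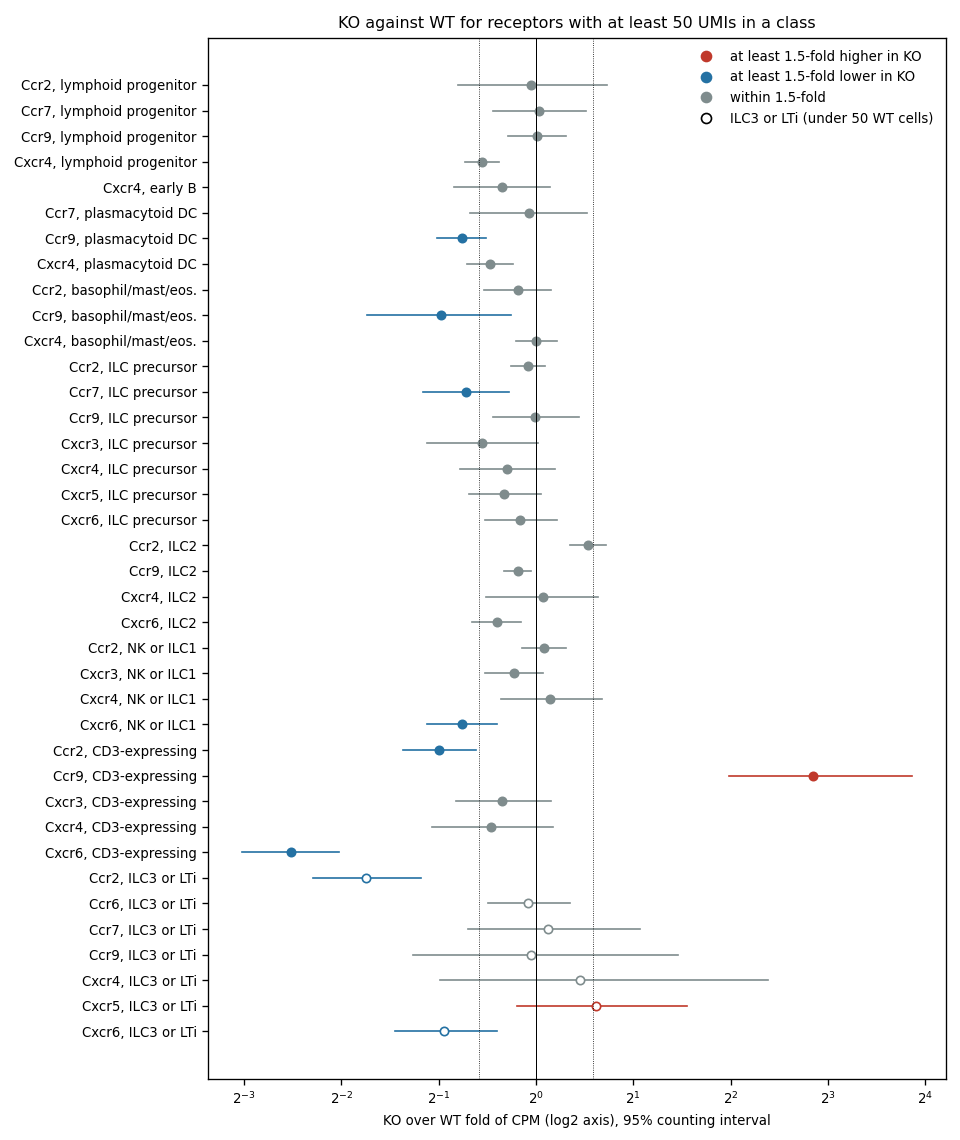
KO over WT fold of CPM (horizontal log2 axis, line for the 95% counting interval) for each receptor and class with at least 50 UMIs, with dotted lines at 1.5-fold in either direction and open points for ILC3 or LTi cells, which had under 50 WT cells. The point furthest to the right is Ccr9 in CD3-expressing lymphocytes (7.18), and the point furthest to the left is Cxcr6 in the same class (0.175).

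The largest differences lay in the CD3-expressing lymphocytes. Ccr9 had 244 UMIs in 275 KO cells and 11 UMIs in 86 WT cells, a KO over WT fold of 7.18 (3.94 to 14.6). The fold was 3.07 with every cell thinned to 1500 UMIs and 14.6 with at most 5% mitochondrial UMIs. These UMIs were read in 52 KO and 6 WT cells, at 4.69 and 1.83 UMIs per positive cell, and the fold interval does not cover this clustering. The thinned shares were 9.45% (6.27 to 13.5) in KO and 3.49% (0.725 to 9.86) in WT, with overlapping intervals. Cxcr6 had 54 UMIs in KO and 100 in WT, read in 34 KO and 24 WT cells, a fold of 0.175 (0.123 to 0.246). Its UMIs were clustered in WT, at 4.17 per positive cell against 1.59 in KO, which the fold interval does not cover either. Its thinned shares were 4.36% (2.27 to 7.5) in KO and 14.0% (7.42 to 23.1) in WT, with intervals that just overlapped. Ccr2 had 152 UMIs in KO and 98 in WT, a fold of 0.502 (0.387 to 0.654), which was 0.721, inside the rule, without a gap between marker scores. The make-up of this class differed between the libraries. A UMI of Cd3d, Cd3e or Cd3g was read in 206 KO and 84 WT cells. The other 69 KO and 2 WT cells had none and were gated by other markers of the list. Of those 69 KO cells, Trdc was read in 84.1%, Tcrg-C1 in 69.6% and Trac in 7.25%. Gata3 was read in 87.0% of them, Zbtb16 in 40.6% and Klrb1c in 1.45%, and no Cd3 transcript bears out the class name there. These 69 cells had Ccr9 at 197 CPM, Ccr2 at 134 CPM and 0 Cxcr3 UMIs. Within the cells with a Cd3 UMI, Ccr9 stood at 80.3 CPM in KO and 15.9 CPM in WT, Cxcr6 at 20.3 CPM in KO and 157 CPM in WT, and Ccr2 at 44.3 CPM in KO and 156 CPM in WT, so all 3 differences were past 1.5-fold there too. Cxcr3 in these cells was 93.0 CPM in KO and 81.1 CPM in WT. Trdc was read in 44.7% of these KO cells and 33.3% of these WT cells, and Zbtb16, the factor of innate-like lymphocytes, in 5.83% and 16.7%. The part of these marker differences in the receptor differences was not tested.

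Outside that class the differences were smaller. Ccr9 in plasmacytoid dendritic cells was 85.8 CPM in KO and 146 CPM in WT, a fold of 0.589 (0.494 to 0.701), and the thinned share was 13.9% in KO and 19.2% in WT. Without cells that carry 3 cycling markers the fold was 0.668, inside the rule. Cxcr4 in the same cells had a fold of 0.722 (0.611 to 0.851), within the rule, and with every cell thinned to 1500 UMIs a fold of 0.527, past it, with thinned shares of 11.9% in KO and 21% in WT. Cxcr6 in NK cells or ILC1 had a fold of 0.589 (0.46 to 0.757), with thinned shares of 12.3% in KO and 21.7% in WT. Ccr7 in ILC precursors had a fold of 0.607 (0.449 to 0.827), while its thinned shares were 6.38% in KO and 6.19% in WT and the fold without cycling cells was 0.70, inside the rule. With cycling cells left out of every class, 3 pairs in place of 6 were lower in KO. The Ccr9 fold of 0.51 in the basophil class rests on 23 KO and 58 WT UMIs, read in 5 KO and 19 WT cells. Just inside the rule, Ccr2 in ILC2 had a fold of 1.45 (1.27 to 1.65) and Cxcr4 in common lymphoid progenitors a fold of 0.68 (0.601 to 0.769). Ccr9 and Cxcr6 in ILC2 had folds of 0.877 (0.797 to 0.965) and 0.758 (0.636 to 0.901), of which the Cxcr6 interval reaches past the 1.5-fold limit and the Ccr9 interval does not. Cxcr4 in the basophil class had a fold of 1 (0.865 to 1.16), and Ccr9 in progenitors 1.01 (0.82 to 1.24), which was 1.52 with at most 5% mitochondrial UMIs, past the rule, and 0.558 with thinned cells, on under 50 UMIs.

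Within ILC2, Ccr2 and Ccr9 were higher in cells without a UMI of Calca, the gene of the neuropeptide CGRP. Ccr2 stood at 297 CPM in KO cells without Calca and 170.1 CPM in KO cells with it, a fold of 1.74 (1.45 to 2.11), and in WT at 257 and 101 CPM, a fold of 2.53 (2.1 to 3.07). For Ccr9 the fold was 1.37 (1.18 to 1.6) in KO and 2.03 (1.8 to 2.29) in WT. Cxcr6 had a no-Calca over Calca fold of 1.08 (0.809 to 1.43) in KO and 0.963 (0.775 to 1.19) in WT. The KO library held 196 ILC2 without and 240 with a Calca UMI, and the WT library 170 and 321. The cells without Calca had the larger median depth in both libraries, 4680.5 and 5824 UMIs, against 4370 and 5051 UMIs for the cells with it. Among ILC2 without Calca, Ccr9 stood at 394 CPM in KO and 566 CPM in WT, while among those with Calca it stood at 287 and 279 CPM. Calca is itself a marker of the ILC2 gate.

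Receptors also differed between cells with at least 3 of 6 cycling markers, such as Mki67 and Top2a, and cells with fewer. In the basophil class, Ccr2 stood at 20.7 CPM in cycling and 133 CPM in other KO cells, a fold of 0.156 (0.0858 to 0.264), and in WT the fold was 0.188 (0.133 to 0.262). Ccr9 was lower in cycling progenitors, with a fold of 0.613 (0.461 to 0.807) in KO and 0.295 (0.192 to 0.441) in WT, and in cycling plasmacytoid dendritic cells, with 0.488 (0.355 to 0.665) in KO and 0.719 (0.589 to 0.876) in WT. Cxcr4 ran the other way in plasmacytoid dendritic cells, with 1.56 (1.19 to 2.05) in KO and 1.33 (1.08 to 1.63) in WT, and in progenitors the folds were 1.05 (0.881 to 1.24) and 1.06 (0.882 to 1.27). In the basophil class the Cxcr4 folds lay on either side of 1, with 1.41 (1.13 to 1.77) in KO and 0.823 (0.674 to 1.01) in WT, and Ccr9 in WT had a fold of 0.344 (0.195 to 0.598), with 17.6 CPM in cycling and 51.2 CPM in other cells. Cycling cells were deeper, with a median of 14468 UMIs in KO and 11748 in WT among plasmacytoid dendritic cells, against 9259 and 7632 among the others, and the part of depth was not tested. They made up 78 of 194 KO and 123 of 281 WT plasmacytoid dendritic cells. Splitting progenitors by Ly6d, the marker of B-biased progenitors, gave Ccr7 folds of 0.935 (0.623 to 1.41) in KO and 1.15 (0.658 to 2.05) in WT and Ccr9 folds of 1.05 (0.815 to 1.36) and 0.695 (0.499 to 0.968).

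**Figure D4:**
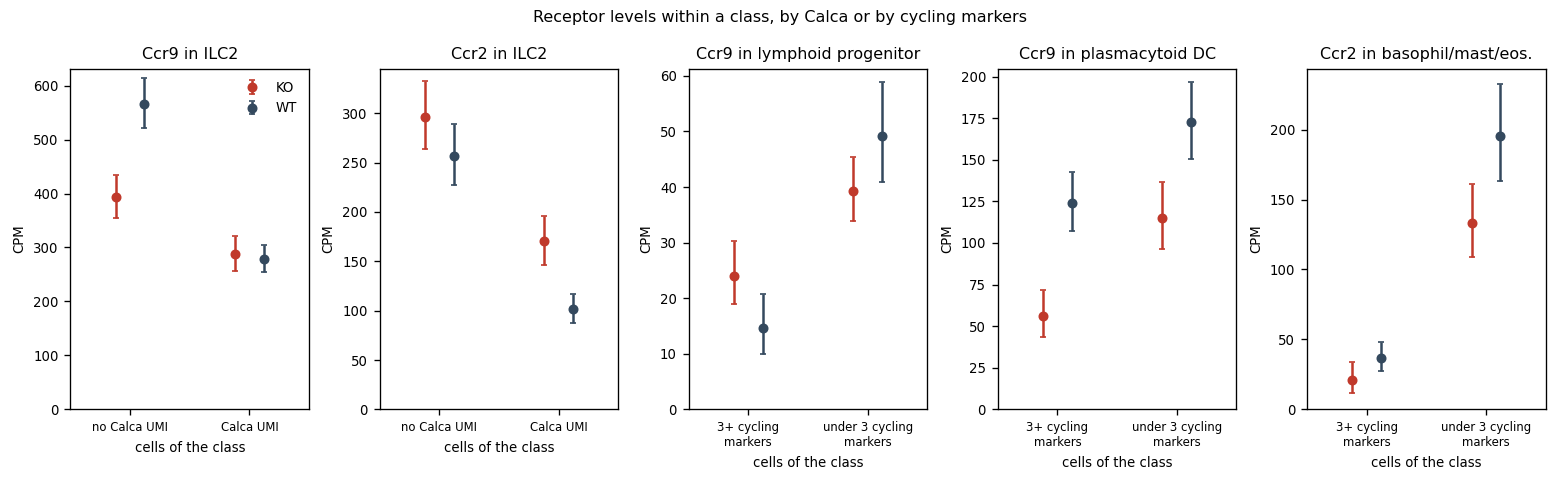
Level (CPM, vertical axis from 0, with 95% counting intervals) of Ccr9 and Ccr2 in ILC2 with and without a Calca UMI, and of Ccr9 or Ccr2 in 3 other classes by cycling markers, with KO left of WT. Ccr2 in the basophil class stood at 20.7 CPM in cycling and 133 CPM in other KO cells, and at 36.7 and 196 CPM in WT.

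Single cells often carried several receptors. UMIs of at least 2 of the 9 were read at full depth in 43.3% of KO ILC2 and 45% of WT ILC2, and after thinning in 14.4% and 12.4%. For NK or ILC1 the full-depth share was 54.2% in KO and 67% in WT, and 16.5% and 16.5% after thinning. In the ILC precursor class it was 51.9% in KO and 57.5% in WT, and 13.3% and 11.5% after thinning. In the CD3-expressing lymphocyte class it was 27.3% in KO and 48.8% in WT, and 3.64% and 15.1% after thinning. Pairs of receptors read together at full depth included Ccr2 with Cxcr3 in NK or ILC1 cells (34.7% in KO, 33% in WT), Ccr2 with Ccr9 in ILC2 (22.7% and 21.4%) and Ccr9 with Cxcr4 in the plasmacytoid dendritic cell class (23.2% and 32.7%). Of the ILC precursor cells, 19.1% in KO and 22.1% in WT carried Ccr2 with Cxcr6. In the CD3-expressing lymphocyte class, Ccr9 and Cxcr6 stood together in 3.27% of KO and 1.16% of WT cells. Of the ILC3 or LTi cells, 26.6% in KO and 26.9% in WT carried Ccr6 with Cxcr5. These shares depend on depth and on each receptor's own level, so no preferred pairing of receptors is read from them.

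For each receptor the genes most alike in pattern were sought by Pearson's r of log2(CPM + 5) over 16 values (8 classes in 2 libraries) among 9389 genes, as a description of values that share libraries and cells. The gene most like Ccr9 was Lztfl1 (r = 0.89), with a gap of 49.6 kb between the genes. Lztfl1 stood at 609.8 CPM in KO and 741 CPM in WT ILC2 and at 42.4 and 80.2 CPM in NK cells or ILC1. In CD3-expressing lymphocytes Lztfl1 stood at 125 CPM in KO and 65.5 CPM in WT, and in those without a Cd3 UMI at 233 CPM in KO. In those with a Cd3 UMI Lztfl1 stood at 69.0 CPM in KO and 63.6 CPM in WT, where Ccr9 stood at 80.3 CPM in KO and 15.9 CPM in WT, so in these cells the libraries lay further apart in Ccr9 than in Lztfl1. A GENCODE transcript model of Ccr9 starts far upstream and spans Lztfl1 on the other strand, with 0 shared exon bases, and no source used here says whether counting was strand-specific. Cxcr6, on the other side of Ccr9, was high in NK cells or ILC1, with 72.6 CPM in KO and 123 CPM in WT, and low in plasmacytoid dendritic cells, with 2.22 and 4.95 CPM. Fyco1, which contains Cxcr6 on the opposite strand with 0 shared exon bases, stood between 18.4 and 73.7 CPM over all classes and libraries.

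**Figure D5:**
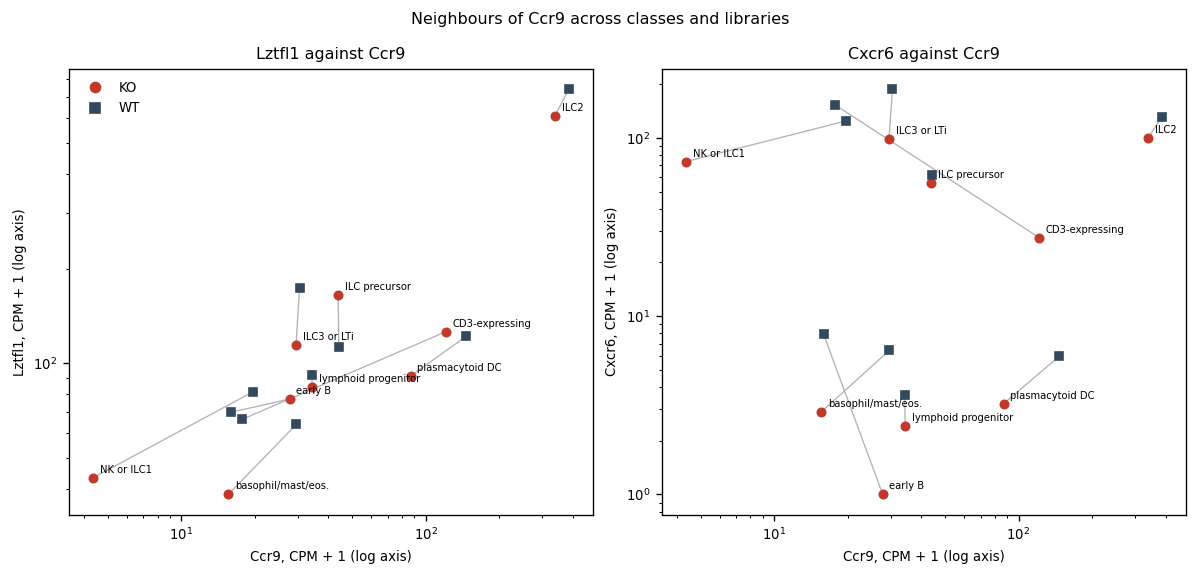
Level of Lztfl1 (left) and Cxcr6 (right) against that of Ccr9 (CPM + 1, log axes) in each class, with a circle for KO, a square for WT and a grey line joining both of a class. Lztfl1 is highest where Ccr9 is highest, in ILC2 (609.8 CPM in KO, 741 CPM in WT), whereas Cxcr6 is also high in classes with little Ccr9.

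The other receptors had their own companions. Those of Cxcr3 were the NK cell receptor gene Cd160 (r = 0.99), the lymphocyte protease gene Ctsw (r = 0.98) and Il12rb2, a chain of the interleukin-12 receptor (r = 0.97). Ccr2 was most like Rbl2 (r = 0.96), a pocket protein gene, Rinl and Tnfsf14 (r = 0.95 each). Cxcr6 was most like Pttg1, Stk39 and Tnfrsf25 (r = 0.96 each), Cxcr4 like Pdia6, Kif20b and Uchl5, and Cxcr5 like Fgf15, Bcas1os2 and Cacna1e. The companions of Ccr7 were Lrrc8b, Hddc2 and Zfp444, and those of Ccr9 beside Lztfl1 were Synpo2 and Cacna1d. Ccr6 (Nr1d1, Kpna4, Aqp3) and Ccr8 (Fbxl21, Mbd5, Ormdl3) rest on few UMIs in these classes. Ccr1, another chemokine receptor gene of chromosome 9, was read in the basophil class at 259 CPM in KO and 263 CPM in WT.

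Of the measured members of the signalling list (G protein subunits, receptor kinases, arrestins, Dock2 and its partners), 0 of 19 were past 1.5-fold in NK cells or ILC1, 0 of 21 in progenitors, 0 of 18 in plasmacytoid dendritic cells and 0 of 19 in the basophil class. The shares of all genes past the rule in these classes, given above, lay between 2.69% and 5.85% in either direction, so such counts are near the background. In ILC2 1 of 19 was past it (2.7% of all genes higher, 6.88% lower), Pik3cg, at 13 CPM in KO and 24.1 CPM in WT, and in ILC precursors 2 of 20 (5.25% and 4.4%), Grk3 at 18.8 CPM in KO and 11.1 CPM in WT and Pik3r5 at 13.2 CPM in KO and 8.35 CPM in WT, both with counting intervals that include 1. In CD3-expressing lymphocytes 1 of 18 was higher (13.3% of all genes), Gnai3 at 160.2 CPM in KO and 88.3 CPM in WT, and in early B cells 1 of 16 (6.25%), Plcb2 at 36.3 CPM in KO and 13.8 CPM in WT. Of the ligands few were measured, and Cxcl10, the ligand of Cxcr3, was higher in KO in ILC2 (65.2 CPM in KO and 17.2 CPM in WT), in ILC precursors (64.3 CPM in KO and 30.6 CPM in WT), in NK cells or ILC1 (44 CPM in KO and 22.1 CPM in WT) and in the basophil class (28.5 CPM in KO and 2.96 CPM in WT). In each of these classes 1 of 2 measured ligands was higher, and it was Cxcl10 each time. Of all genes there, 2.7%, 5.25%, 4.79% and 3.27% were higher, and with so few ligands nothing is read for the list. The 1 ligand measured in CD3-expressing lymphocytes was higher too (13.3% of all genes). In progenitors, early B cells and plasmacytoid dendritic cells the 1 ligand measured was not past the rule. Of all genes there, 2.69%, 6.25% and 2.89% were higher and 3.94%, 9.42% and 4.62% lower. Of the Rgs genes, 2 of 6 measured were higher and 0 lower in ILC2 (2.7% of all genes higher), 1 of 7 higher in ILC precursors (5.25%), 1 of 7 in NK cells or ILC1 (4.79%), 1 of 4 in early B cells (6.25%) and 2 of 5 in the basophil class (3.27%). In CD3-expressing lymphocytes 3 of 7 were higher and 2 lower (13.3% and 6.61% of all genes), in progenitors 1 of 6 was higher and 1 lower (2.69% and 3.94%), and in plasmacytoid dendritic cells 0 of 5 were past the rule. Rgs2, which shortens G protein signals, was higher in KO in ILC2 (378 CPM in KO and 164 CPM in WT), ILC precursors (164 CPM in KO and 89.1 CPM in WT), NK cells or ILC1 (192 CPM in KO and 123 CPM in WT), CD3-expressing lymphocytes (99.5 CPM in KO and 65.5 CPM in WT) and the basophil class (518 CPM in KO and 271 CPM in WT). Rgs1, a damper of chemokine receptors in lymphocytes, was higher in KO in ILC2 (323 CPM in KO and 208 CPM in WT), the basophil class (1154 CPM in KO and 538 CPM in WT), early B cells (73.6 CPM in KO and 21.8 CPM in WT) and CD3-expressing lymphocytes (129.6 CPM in KO and 85.3 CPM in WT), where Rgs18 was also higher (30.6 CPM in KO and 19.8 CPM in WT) and Rgs10 and Rgs14 were lower (28.6 CPM in KO and 48.7 CPM in WT, and 16.3 CPM in KO and 25.9 CPM in WT). In progenitors Rgs10 was higher (49.1 CPM in KO and 32.1 CPM in WT) and Rgs3 lower (7.16 CPM in KO and 12.6 CPM in WT). The median log2 ratio of the Rgs list was -0.23 in ILC2, against -0.08 over all measured genes there, and its mean was 0.12.

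Among genes of egress and retention, Klf2, the factor that maintains the egress receptor S1pr1, was higher in KO in ILC precursors (109.6 CPM in KO and 59.9 CPM in WT), progenitors (188 CPM in KO and 120.1 CPM in WT), early B cells (209 CPM in KO and 98.9 CPM in WT), plasmacytoid dendritic cells (435 CPM in KO and 286 CPM in WT) and the basophil class (194 CPM in KO and 69.6 CPM in WT). Of the measured genes of this list, 2 of 13 were higher in ILC precursors (5.25% of all genes higher), 1 of 14 in NK cells or ILC1 (4.79%) and 1 of 12 in plasmacytoid dendritic cells (2.89%), with 0 lower. In progenitors 1 of 12 was higher and 1 lower (2.69% and 3.94%). In early B cells 2 of 9 were higher and 1 lower (6.25% and 9.42%). In the basophil class 1 of 14 was higher and 1 lower (3.27% and 5.85%). Cd69, which holds S1pr1 off the surface, was higher in KO ILC precursors (202 CPM in KO and 87 CPM in WT). Itga4, an integrin gene that is also a marker of the ILC precursor gate, was lower in KO ILC2 (199 CPM in KO and 356 CPM in WT), and Itgb7, its partner in gut homing, was lower in KO CD3-expressing lymphocytes (89.2 CPM in KO and 245 CPM in WT) and progenitors (9.21 CPM in KO and 24.1 CPM in WT). In CD3-expressing lymphocytes 4 of 13 measured genes of the list were lower and 0 higher (6.61% of all genes lower, 13.3% higher), S1pr1, Cd44 and Itgb1 beside Itgb7, with a median log2 ratio of -0.28, against 0.03 over all measured genes. In ILC2 2 of 13 were lower (6.88% of all genes), Itga4 and Ptger4 (17.9 CPM in KO and 37.5 CPM in WT), with a median of -0.06. Of the other chemokine receptors, 1 of 1 measured was higher in KO ILC2 (2.7% of all genes higher) and 1 of 3 in progenitors (2.69%). In both it was Ccrl2, which binds chemerin without signalling. Ccrl2 stood at 22.2 CPM in KO and 12 CPM in WT ILC2, and at 12.7 CPM in KO and 5.21 CPM in WT progenitors. In plasmacytoid dendritic cells 1 of 1 was lower (4.62% of all genes lower), Cx3cr1, at 24.5 CPM in KO and 36.8 CPM in WT. In ILC precursors, NK cells or ILC1, CD3-expressing lymphocytes and the basophil class 0 were past the rule, and in early B cells 0 were measured.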

How the data were processed

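Raw UMI counts were deposited as a matrix of genes by barcodes per library, written by Cell Ranger 3.1.0 per the file headers. The submitters' processing notes name the genome build mm10 and Seurat. For the annotation release and the use of strand, nothing is given in the sources used here. Receptors, gene lists and markers were chosen with earlier results of these data known.

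Cells were scored on 13 marker lists from counts scaled to 10000 per cell and log-transformed, each gene divided by its standard deviation, with both libraries weighted equally. No doublet caller was run, and cells with 2 close scores took no class. UMIs were summed per class and library. Intervals at 95% are exact Poisson (levels), Clopper-Pearson (shares) and binomial (folds). UMIs are counts of molecules, and intervals cover counting error only. A fold was called at 1.5 with at least 50 UMIs over both libraries, without a test, since each genotype had 1 library. Log2 ratios used a pseudocount of 5 CPM. Thinning drew 1500 UMIs per cell (seed 0). Named were all 9 receptors, up to 4 list members past the rule per class by fold, and for each receptor the 3 genes of most similar pattern, leaving out markers and sex-linked, mitochondrial, ribosomal protein, haemoglobin, immunoglobulin and T cell receptor genes. For some lists and classes members past the rule are only counted and not named. The splits of a class, the ILC3 or LTi class and the neighbours of Ccr9 were described after their values were seen. Python 3.11.15, numpy 2.4.6, scipy 1.17.1 and pandas 2.3.3 were used, with edgeR 4.0.16 in R 4.3.3 for TMM factors in 1 alternative. The fold rule was tested on simulated data. Sequences and gene spans are from RefSeq (GRCm38.p6), and exon overlaps from GENCODE M21.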

Additional observations from a re-analysis of the deposited data

Results flagged for a closer look

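The KO over WT fold of Ccr9 went in opposite directions in different classes. It was 7.18 in CD3-expressing lymphocytes, against 0.589 in plasmacytoid dendritic cells and 0.510 in the basophil class. Each genotype had 1 library, so the difference between these folds was not tested. The cells with a Cd3 UMI gave a fold of 5.05, and the plasmacytoid dendritic cells without cycling cells a fold of 0.668. The basophil value rests on 23 UMIs in KO and 58 UMIs in WT, read in 5 KO and 19 WT cells. The value of CD3-expressing lymphocytes rests on 244 UMIs in KO and 11 UMIs in WT, read in 52 KO and 6 WT cells.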

How the results depend on the processing

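Of the 12 alternatives, the 2-fold limit and the lack of a minimum of UMIs bear on the counts of pairs only. In the others, 250 of 284 recomputed folds stayed within the interval of the reported fold, 34 lay outside it and 0 called folds turned their direction. The restriction to cells with a Cd3 UMI entered these for CD3-expressing lymphocytes only. The count of pairs higher in KO, 1 as reported, was 2 with at least 500 genes per cell, 2 with at most 5% mitochondrial UMIs, 2 with TMM factors, 3 without a gap between scores and 12 with no minimum of UMIs. The count of pairs lower in KO, 6 as reported, was 24 with no minimum of UMIs, 9 with at least 500 genes per cell, 1 at a 2-fold limit and 3 without cells that carry 3 cycling markers. With every cell thinned to 1500 UMIs, 13 pairs were measured and 5 were lower, of which 2 are among the 6 reported. Ccr9 in CD3-expressing lymphocytes kept its call in all 10 alternatives (3.07 to 14.6), as did Cxcr6 in NK cells or ILC1 in all 9 (0.517 to 0.665). Cxcr6 in CD3-expressing lymphocytes lay between 0.129 and 0.232 and lost its call only when thinned, with under 50 UMIs left. Without cycling cells Ccr7 in ILC precursors was 0.70 and Ccr9 in plasmacytoid dendritic cells 0.668, both just inside the rule, and Ccr2 in CD3-expressing lymphocytes 0.721 without a gap between scores. Ccr2 in ILC2 passed the rule with TMM factors, at 1.55, Cxcr6 in ILC2 when thinned, at 0.659, Cxcr4 in plasmacytoid dendritic cells when thinned, at 0.527, Ccr9 in progenitors with at most 5% mitochondrial UMIs, at 1.52, and Cxcr4 in progenitors when thinned, at 0.607, and without the 8% of cells with most UMIs, at 0.554. The restrictions to cells without cycling markers, with at least 3000 UMIs or with a Cd3 UMI, and the gap of 0, were chosen after seeing the data. Causes of these shifts were not tested, and the smaller subsets had fewer UMIs. No paired analysis was possible because each genotype had 1 library, and for the same reason no library could be left out. Ccr8 in every class described, and Ccr6 outside ILC3 or LTi cells, had under 50 UMIs over both libraries. In progenitors Ccr6 had 0 UMIs in each library, which allows up to 0.472 CPM in KO and 0.801 CPM in WT.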
